A study of Rattus norvegicus with 3 samples.

Results

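Of the 9084 annotated Seh1 peaks of rat oligodendrocyte progenitor cells (OPC), 302 lay in a RatSatRep2 repeat or in a repeat of the Satellite class. They made up 3.32% of the annotated peaks (exact binomial 95% interval 2.97 to 3.71%). Membership was read from the detailed annotation in the authors' deposited table: its first field had to name RatSatRep2, or its second field the class Satellite. RatSatRep2 gave 279 members and the Satellite class 23, of which 17 were ZP3AR, 4 were 91ES8_RN, 1 was ISAT_RN and 1 was RatSatRep1. The annotation does not place RatSatRep2 itself in the Satellite class but lists its class as unknown, so most members have the word satellite in their name and not in their class.

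Seh1 is a subunit of the Y complex, which forms the scaffold of the nuclear pore and in dividing vertebrate cells is also found at kinetochores. Satellite DNA consists of units repeated in tandem, and its large arrays are packed as heterochromatin at and around centromeres. Heterochromatin often lies at the nuclear envelope, with gaps at the pores. Reads from repeated sequence can match several places equally well, and how such reads were handled is unstated in the sources used here.

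The libraries were made by chromatin immunoprecipitation and sequencing (ChIP-seq) from cells of the forebrain of Sprague Dawley rats at postnatal day 1 to 2. Seh1 was profiled in immature oligodendrocytes (iOL), which had received 60 nM triiodothyronine (T3) for 1 day without PDGF-AA, bFGF and NT3, and in OPC, which were grown with those 3 factors and CNTF. The other library, IgG in iOL, has no values of its own in these comparisons, and background in OPC was not measured. Per the file headers, the annotated OPC peaks are named for OPC Seh1 and iOL IgG. Whether the iOL IgG library served as their control is unstated in the sources used here. On build rn6, the iOL list held 6704 peaks, each 209 bp wide, and the OPC list 9117, each 205 bp wide. Read totals are unstated in the sources used here. Depth is therefore unknown, and intervals cover the counting error alone. Each stage has 1 library and no replicate error, and no test was made between stages or repeat classes.

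Few iOL peaks overlapped an OPC peak in these repeats. The iOL peaks have no annotation here, so how many of them lie in such repeats is unknown. In all, 18 iOL peaks (0.268% of the iOL list) overlapped 18 of the 302 members by 1 bp or more, or 5.96% of the members (exact binomial 95% interval 3.57 to 9.26%). Over all annotated OPC peaks the share was 1.73%. Among the like repeat classes it was 2.22% of 902 peaks in LINE retrotransposons (1.36 to 3.40%), 2.32% of 345 in simple repeats (1.01 to 4.52%), 0.847% of 708 in LTR retrotransposons (0.312 to 1.84%) and 0 of 509 in SINE repeats (upper bound 0.722%). Outside the members and the copies of the small RNAs 7SL and 7SK it was 1.13% of 8741 peaks (0.921 to 1.38%). The members' interval lay above that of these 8741 peaks and above those of LINE, LTR and SINE peaks, and overlapped that of simple repeats. Members also had higher scores than LINE peaks. With a score of 8.30 or more, a threshold described with the scores further on, the share was 7.37% of 190 members (4.09 to 12.1%), against 4.87% of 308 LINE peaks (2.75 to 7.91%) and 2.50% of the 2278 peaks outside the members and 7SL and 7SK copies (1.90 to 3.23%). At these scores the intervals of members and LINE peaks overlapped. With the 7SL and 7SK copies kept, the share was 4.18% of the 2319 peaks outside the members (3.40 to 5.08%). That interval also overlapped the interval of the members.

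**Figure D1:**
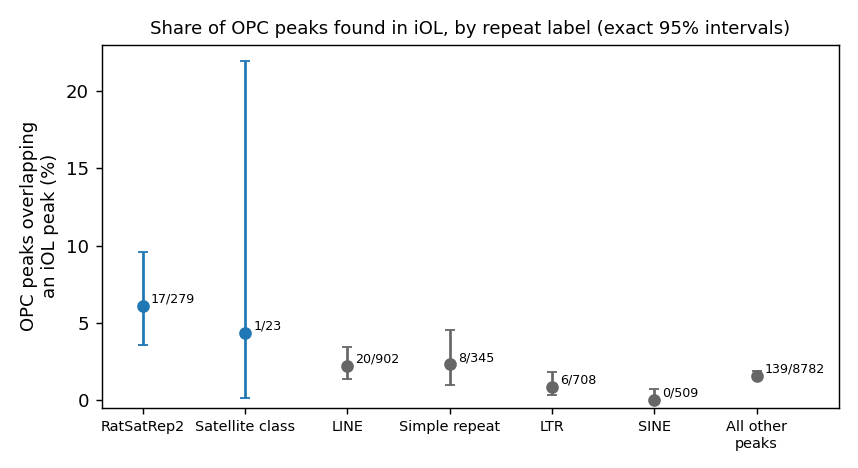
Share of OPC peaks that overlap an iOL peak by at least 1 bp, in percent, by repeat label; points are shares, bars exact binomial 95% intervals, and the fractions give the counts. RatSatRep2 (17 of 279) stands above LINE (20 of 902) over peaks of all scores, while the interval of the 23 Satellite class peaks spans nearly the whole axis.

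The closest matches between stages included RatSatRep2 repeats near Bche and in introns of Necab1 and Stag1. Near Bche, which encodes the choline ester hydrolase butyrylcholinesterase, the iOL peak (chromosome 2, 171270678 to 171270886) covered the whole OPC peak (171270679 to 171270883), and their centres were 1 bp apart. Repeats inside introns also had overlaps of 197 bp. One lay in intron 6 of 12 of the calcium-binding protein gene Necab1 (chromosome 5, 28561706 to 28561910, score 9.58), for which the table gives Tmem55a as the nearest gene. Another was in intron 9 of 30 of Stag1, which encodes a cohesin subunit (chromosome 8, 109167988 to 109168192, score 7.66). In both introns the centres of the iOL and OPC peaks were 10 bp apart.

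Between genes, the overlaps below that near Bche ranged from 185 bp near the water channel gene Aqp8 and 169 bp near Tnfsf11, the ligand gene of the receptor RANK, to 81 bp near the cilium gene Sntn and 80 bp near Arhgap18, which encodes a GTPase-activating protein. The others between genes lay near Mir876 (151 bp), the NADPH oxidase gene Nox3 (150 bp), the melanin synthesis gene Tyrp1 (140 bp) and Cldnd1 (133 bp). Further ones lay near the contactin gene Cntn3 (131 bp), the adaptor gene Dok6 (123 bp), the mitochondrial rRNA methyltransferase gene Tfb1m (119 bp) and Lrrc4c, a netrin-G ligand gene of synapses (118 bp). A repeat in intron 6 of 6 of Lrmda (table name LOC681383) had an overlap of 128 bp. The only shared Satellite class peak was a ZP3AR repeat -9.68 kb from the transcription start site (TSS) of Gltscr1, now Bicra, which encodes a subunit of a BAF remodelling complex (chromosome 1, 77903089 to 77903293, score 7.66, overlap 152 bp). Across the 18 pairs the median overlap was 145 bp and the median distance between centres 62 bp, against 143 bp and 64 bp for the 99 other shared peaks outside 7SL and 7SK copies. The smallest overlap was 80 bp among the members and 7 bp among those 99.

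**Figure D2:**
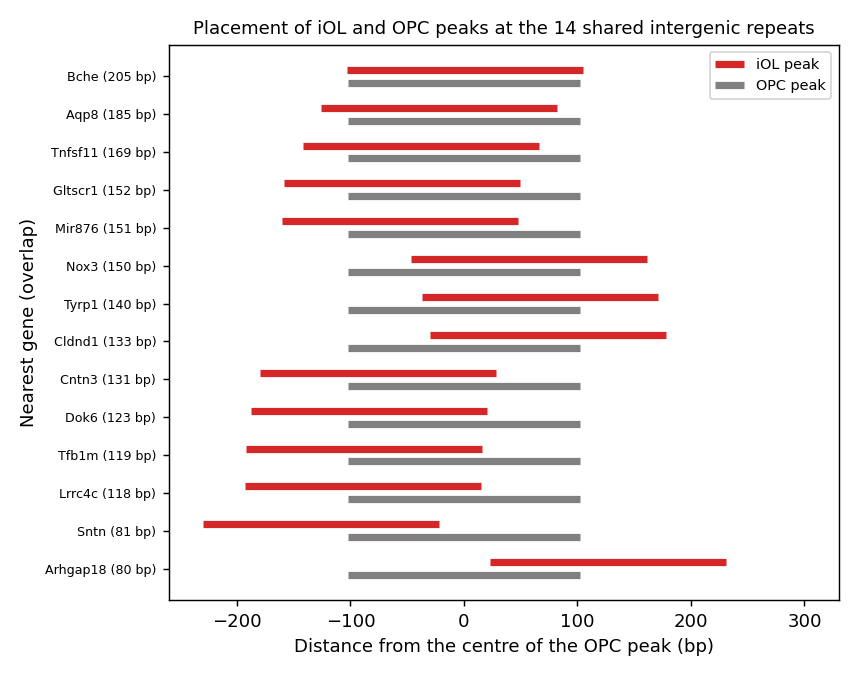
Position of the iOL peak (red, above) and the OPC peak (grey, below) at the 14 intergenic repeats with a peak in both lists, in bp from the centre of the OPC peak; labels give the nearest gene and the overlap. Overlaps run from the whole OPC peak near Bche to 80 bp near Arhgap18, and iOL peaks lie on both sides of the OPC centres.

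Another 3 RatSatRep2 peaks of OPC had an iOL peak within 1 kb without overlap: 159 bp away near Clvs2, 508 bp away near Rwdd3, and 166 bp away near LOC498592 on a scaffold of chromosome Y. With these, 21 members (6.95%) lay at or within 1 kb of an iOL peak, against 2.88% over all annotated OPC peaks. For the remaining members the nearest iOL peak was mostly far off, at a median of 233 kb over all 302, against 207 kb for LINE peaks and 86.0 kb for all 8782 other peaks.

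Scores of the members sat above the middle of the OPC list. The score is the authors' value per peak, as their caller gave it, and its definition is not stated in the table. Scores fell on steps of 0.638. Members had scores of 5.75 to 27.5, with quartiles of 7.66 and 9.58 and a median of 8.94 (14 steps). The other peaks ran from 5.11 to 197.3, with quartiles of 7.02 and 8.30 and a median of 7.66 (12 steps). LINE peaks had a median of 7.66, and LTR and SINE peaks of 7.02. A score of 8.30 or more, the upper quartile of the list, was reached by 190 members (62.9%), against 27.6% of all annotated OPC peaks and 34.1% of LINE peaks. Of the members, 12 ranked within the first 100 of the list, 40 within the first 200 and 158 within the first 1000, with ties given the better rank. Because of ties these sets hold more than 100, 200 and 1000 peaks of the list. The next lower scores began at ranks 111, 248 and 1473.

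The highest score belonged to a group of 91ES8_RN repeats on chromosome 2. These 4 peaks lay within 48.8 kb (160885462 to 160934252) and had scores of 27.5, 17.2, 14 and 17.9 in the order of their positions. The first 3 were spaced over 5.04 kb and the last stood apart. Their nearest TSS, that of Veph1, was -2729 to -2778 kb away, and none of the 4 overlapped an iOL peak, the nearest of which was 589.9 to 638.5 kb off. All 4 were therefore among the 12 highest-scoring members, which extend to a score of 13.4 because of ties. Of the other 8, 7 were RatSatRep2 peaks. The highest of these lay between genes near Arid4b, which encodes a subunit of a Sin3 histone deacetylase complex (chromosome 17, 53797604 to 53797808, score 18.5, -84.3 kb). Next came peaks near the GABA receptor gene Gabrb1 (chromosome 14, 39128393 to 39128597, score 17.2, -15.9 kb), near the protease gene Adamts9 (score 16, -352 kb) and near Bche (score 16, -593 kb). The peak near Fam13a had a score of 14, and those near the mitochondrial gene Chchd2 and the pheromone receptor gene Vom2r61 had 13.4 each. The Bche peak with a score of 16 is not the one shared with iOL, and none of these 12 overlapped an iOL peak.

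The only ISAT_RN peak (chromosome 9, 8747860 to 8748064) had a score of 13.4 and the highest focus ratio of all members, 0.955. The focus ratio is a fraction that HOMER reports per peak: the share of reads that lie on the side of the peak centre where reads of a sharp site are found. Over the 302 members the ratio was low, with a median of 0.685 and quartiles of 0.618 and 0.750, against a median of 0.778 and quartiles of 0.714 and 0.842 for the other peaks. A ratio below 0.706, the lower quartile of the list, was found in 177 members (58.6%), against 22.5% of all annotated OPC peaks, 32.0% of LINE peaks and 12.4% of SINE peaks. RatSatRep2 peaks had a median of 0.682, 91ES8_RN peaks of 0.713 and ZP3AR peaks of 0.765. Low ratios were found mainly at RatSatRep2. A ratio below 0.706 was found in 61.6% of RatSatRep2 peaks, but in 21.7% of the 23 Satellite class peaks, near the share of the list.

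The lowest ratios were all at RatSatRep2 repeats: 0.480 near Mir3584, 0.484 near LOC102548478 on chromosome X, 0.485 at -128 kb from the TSS of the growth regulator gene Myc, 0.487 in the Lrmda intron described above, and 0.50 near the syntaxin gene Stx19. Below ISAT_RN, the highest were 0.941 near the interferon gene Ifna4, 0.933 near the histone demethylase gene Phf8, 0.929 near Elmo1, a regulator of Rac, and 0.923 near the lens crystallin gene Crygf. The difference in ratio from the other peaks as a whole was present at like scores, but that from LINE peaks was not present at the highest ones. Among peaks with 11 to 12 steps the median was 0.700 for 81 members and 0.778 for 4804 other peaks outside 7SL and 7SK copies. With 15 to 16 steps it was 0.672 for 44 members and 0.783 for 430 others, with 0.698 for 84 LINE peaks. With 17 to 43 steps it was 0.687 for 54 members, 0.760 for 245 others and 0.658 for 40 LINE peaks.

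**Figure D3:**
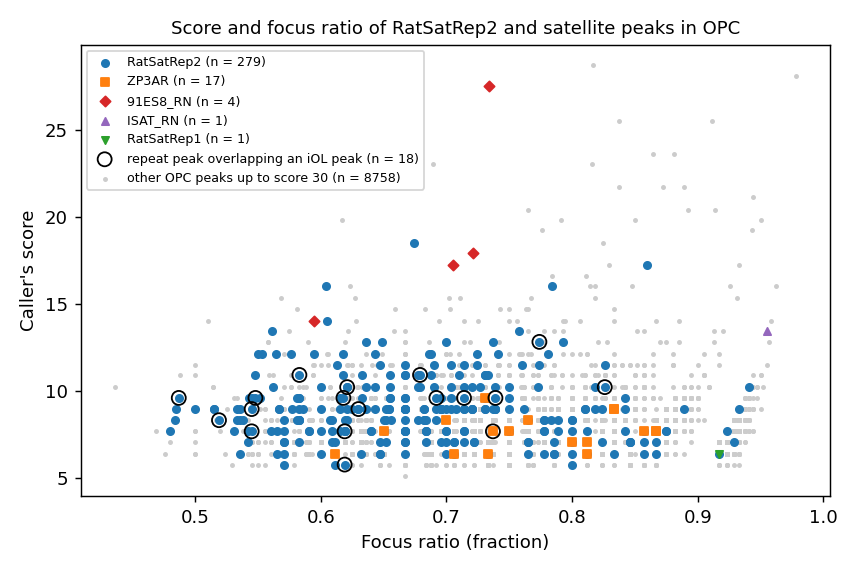
Focus ratio (fraction, horizontal) and caller's score (vertical) of the 302 members by repeat family, over other OPC peaks with scores up to 30 in grey; circles mark the 18 members that overlap an iOL peak. RatSatRep2 peaks extend to ratios of 0.480, and the 4 peaks of 91ES8_RN stand between scores of 14 and 27.5.

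Sharing with iOL was also set out by score. Among peaks with 8 to 10 steps, 1 of 31 members was shared, against 11 of 1659 other peaks outside 7SL and 7SK copies (3.23% and 0.663%). With 11 to 12 steps the counts were 3 of 81 members and 31 of 4804 others (3.70% and 0.645%), and with 13 to 14 steps 3 of 92 and 26 of 1598 (3.26% and 1.63%). The widest gap was at 15 to 16 steps, with 8 of 44 members (18.2%, exact binomial 95% interval 8.19 to 32.7%) and 13 of 430 others (3.02%, 1.62 to 5.11%). With 17 to 43 steps the shares were close, 3 of 54 members and 17 of 245 others (5.56% and 6.94%). LINE peaks were shared in 0 of 179 cases at 8 to 10 steps, 5 of 415 at 11 to 12 (1.20%), 8 of 184 at 13 to 14 (4.35%), 4 of 84 at 15 to 16 (4.76%) and 3 of 40 at 17 to 43 (7.50%). Their share was thus below that of members up to 12 steps and at 15 to 16, and above it at 13 to 14 and at 17 to 43, and the intervals of members and LINE peaks overlapped at each of these score ranges. Shared members had a median score of 9.58 and a median focus ratio of 0.620, against 8.94 and 0.689 for the 284 members found in OPC alone.

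All members lay between genes (249, 82.5%) or in introns (53, 17.5%), because the table gives repeat names only to such peaks. Among the other peaks 55.9% were intergenic and 29.8% in introns. The median distance to the nearest TSS was 148 kb for members, with quartiles of 40.6 and 424 kb, against 147 kb for LINE peaks and 33.7 kb for all other peaks. At 100 kb or more from a TSS lay 175 members (57.9%, exact binomial 95% interval 52.2 to 63.6%), compared with 26.6% of all annotated OPC peaks. Among the other peaks between genes or in introns, 29.4% lay that far off, and their median distance was 43.7 kb. For LINE peaks that share was 60.0% (56.7 to 63.2%), which overlaps the interval of the members. Beyond 1000 kb there were 24 members. The surroundings were poor in other peaks. The count within 500 kb on either side took OPC peaks outside the members only. Its median was 1 for members, 2 for LINE peaks and 5 for all other peaks. No such peak was found there for 83 members (27.5%), for 23.3% of LINE peaks and for 6.33% of all other peaks. Neighbouring members were thus not counted, while LINE neighbours were, and 37 members had another member within 500 kb.

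**Figure D4:**
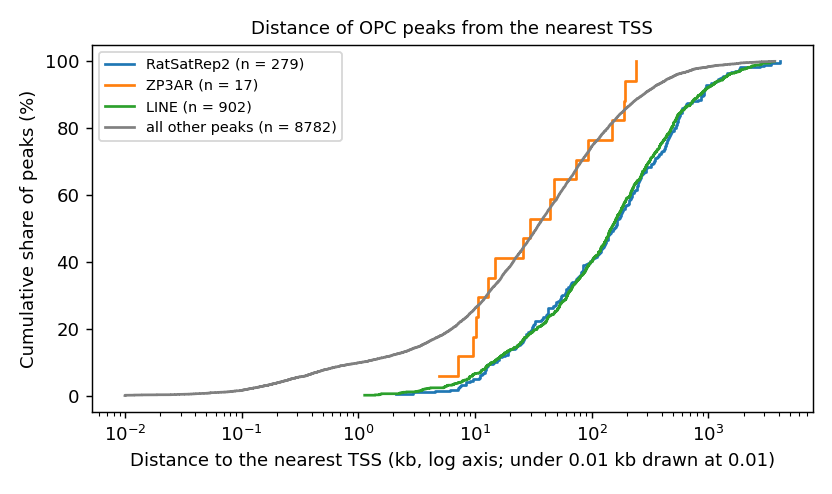
Cumulative share of OPC peaks, in percent, by distance to the nearest TSS in kb on a log axis. The RatSatRep2 and LINE curves run together, with medians of 154 and 147 kb, while ZP3AR peaks (median 29.8 kb) lie near the curve of all other peaks (33.7 kb).

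No member came closer to a TSS than 2.08 kb. The 5 nearest lay -2084 bp from the olfactory receptor gene Olr120, -2930 bp from Crygf, 2947 bp from Olr1697, -4532 bp from Rnf103, which encodes a ubiquitin ligase of the endoplasmic reticulum, and -4890 bp from LOC498152. The last of these is a ZP3AR repeat and the others are RatSatRep2. Upstream of the nearest TSS lay 170 members and downstream 132, against 434 and 468 LINE peaks and 3685 and 5096 of all other peaks. Between genes both groups lay more often upstream, with 159 members upstream and 90 downstream and 2919 and 1986 of the other peaks. Within introns, 6 of 53 members (11.3%) were in the first intron, against 27.5% of 167 LINE peaks in introns and 31.5% of all other intron peaks. A host gene could be named for 48 of the 53 by transcript accession. Hosts included the calcium channel gene Cacna1c, the glutamate receptor gene Gria4, the adhesion gene Nrcam and the histone demethylase gene Kdm4c. Polq, which encodes a DNA polymerase of end joining, and Sycp1, which encodes a protein of the meiotic synaptonemal complex, were hosts as well. These 6 hosts were picked after their values were seen.

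The repeat families were laid out in different ways. RatSatRep2 peaks were mostly scattered, with a median distance of 2.87 Mb from one to the nearest other RatSatRep2 peak on its chromosome. Only 10 of the 302 members had another member within 50 kb, namely the 4 peaks of 91ES8_RN and 3 pairs of RatSatRep2. The pairs lay near Olr306 and Olr307 (44.9 kb from end to end), near Dmd, the dystrophin gene (3.00 kb), and near LOC102548478 (0.862 kb). ZP3AR peaks were found on 4 chromosomes, with 9 of 17 on chromosome 12 between 14392380 and 26732516 and 6 on chromosome 1 between 71461093 and 101638857. Chromosome 12 held only 3 RatSatRep2 peaks. Of the ZP3AR peaks 7 lay in introns, and scores were 6.38 to 9.58 with a median of 7.66, as in the list at large.

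On chromosome 12 the ZP3AR peaks lay near Foxk1 (score 7.66), a forkhead factor gene, near Gna12 (6.38), a G protein gene, near Mafk (6.38), a small Maf factor gene, and near Col26a1 (7.66), Gatsl2 (7.02), Mir6322 (8.30), LOC498155 (8.30) and LOC498152 (8.94). The other, in intron 8 of 30 of the endocytosis gene Hip1, was -47.6 kb from the TSS of Pom121, a membrane-anchored nucleoporin gene (24276928 to 24277132, score 7.66). On chromosome 1 they lay near Irgc (8.94), Sipa1l3 (7.66), Kctd15 (7.02), Nlrp5 (7.66), Fut2 (6.38) and Gltscr1. Of these, the peak with Kctd15 as its nearest gene was in an intron of Chst8, and that at Fut2 in an intron of Fut2 itself. The remaining ZP3AR peaks were near the exosome gene Exosc3 on chromosome 5 (6.38) and near the splicing regulator gene Ptbp1 on chromosome 7 (9.58). The former lay in an intron of Trmt10b and the latter in an intron of Arhgap45. The single RatSatRep1 peak was in an intron of Spats2l on chromosome 9 (6.38), -71.8 kb from the TSS of Sgo2, which encodes a protector of centromeric cohesion.

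Among chromosomes 1 to 20 and X, chromosome X stood apart in its makeup. Y and its scaffold, with 7 annotated peaks, are left out of this order. Of the 127 annotated OPC peaks on X 27 were members, all of them RatSatRep2, which was 21.3% (exact binomial 95% interval 14.5 to 29.4%). Chromosome 2 followed with 37 of 614 (6.03%, 4.28 to 8.21%). The shares were lowest on chromosome 10, with 2 of 647 (0.309%), chromosome 19, with 1 of 316 (0.316%), and chromosome 20, with 2 of 287 (0.697%). Put the other way, X held 8.94% of the members (5.97 to 12.7%), 5.43% of LINE peaks (4.05 to 7.12%) and 1.14% of all other peaks (0.927 to 1.38%). Over all annotated OPC peaks X held 1.40%.

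Densities were set side by side as well. Per Mb of chromosome, taking its length as the largest peak end, there were 0.228 members on chromosome 12, where most were ZP3AR peaks, 0.169 on X, 0.139 on chromosome 2 and 0.132 on chromosome 17. Other peaks numbered 6.81 per Mb on chromosome 12 and 0.626 on X, against 2.17 on chromosome 2 and 3.17 on chromosome 17. Y and its scaffold, with 4 members in all, were left out of this order. On chromosomes 10 and 19 there were 0.0178 and 0.0162 members per Mb and 5.73 and 5.11 other peaks. Across the 21 chromosomes 1 to 20 and X, the 2 densities had a Spearman rank correlation of -0.30, given as a description. Without X it was -0.22, and between members and LINE peaks, with X, it was -0.02. The sex of the pups is unstated in the sources used here.

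**Figure D5:**
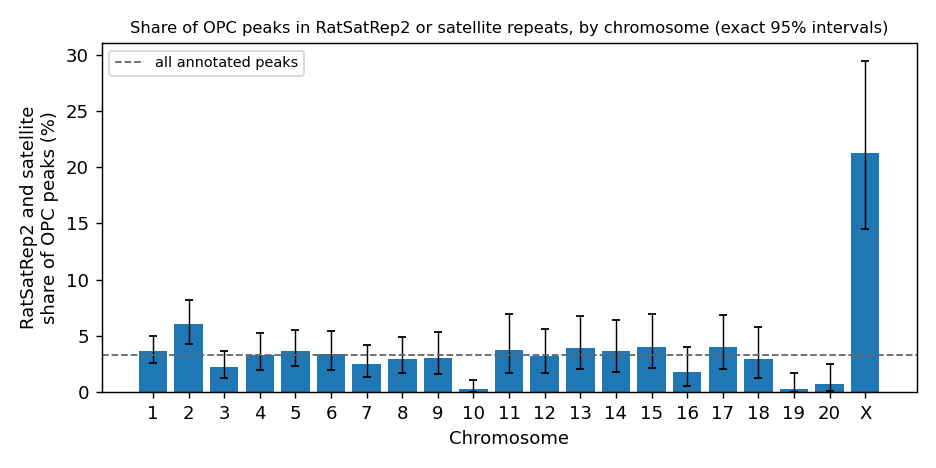
Share of annotated OPC peaks that lie in RatSatRep2 or Satellite class repeats, in percent, for chromosomes 1 to 20 and X; bars are shares, whiskers exact binomial 95% intervals, and the dashed line is the share over all chromosomes (3.32%). Chromosome X stands at 21.3%, and chromosomes 10, 19 and 20 are below 1%.

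The X members had scores of 6.38 to 12.1 with a median of 8.94, the same median as the 275 members elsewhere. None of the 27 overlapped an iOL peak (exact binomial 95% upper bound 12.8%), against 18 of 275 members elsewhere (6.55%). Of the 100 other OPC peaks on X, with 7SL and 7SK copies kept, 8 overlapped an iOL peak (3.52 to 15.2%). The upper bound of the X members lies above the share of members elsewhere. The 27 peaks are therefore too few to set X members apart from the others in sharing. The iOL list had 143 peaks on X, 2.13% of that list. The highest X members lay near Cask, a synaptic scaffold gene (8755633 to 8755837, score 12.1, -1059.9 kb), and near Hccs, the cytochrome c haem lyase gene (26227885 to 26228089, score 12.1, -66.1 kb). Peaks near the protocadherin gene Pcdh19 lay 1863 and 3457 kb from its TSS, with scores of 10.2 and 9.58. Members in X introns lay in the serotonin receptor gene Htr2c, the muscle gene Smpx and the synaptic adhesion gene Il1rapl1.

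Nearest genes were mostly different ones: the 302 members had 282 nearest genes, of which 266 had 1 member each. Veph1 had the 4 members described above, and Lrrc4c and LOC498592 had 3 each. The Lrrc4c peaks were spread over chromosome 3 at -624, 1172 and 1845 kb from its TSS, the second of them in intron 4 of 6, with scores of 5.75, 6.38 and 8.94. The first, with the lowest score among all members, is the one shared with iOL.

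Receptor genes of smell recurred among the nearest genes. Olfactory receptor genes were nearest to 18 members (5.96%, exact binomial 95% interval 3.57 to 9.26%), against 44 of 902 LINE peaks (4.88%) and 92 of all 8782 other peaks (1.05%). Vomeronasal receptor genes were nearest to 6 members (1.99%), 1.77% of LINE peaks and 0.524% of all other peaks. Cadherin and protocadherin genes were nearest to 7 members (2.32%), 2.77% of LINE peaks and 0.626% of all other peaks. These 3 families were picked after their values were seen. Scores at olfactory receptor genes ran from 6.38 to 12.1. None of the members at any of the 3 families overlapped an iOL peak, against 5.96% of all members and 1.73% of all annotated OPC peaks. Members at these families are too few to set them apart from those shares.

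The nearest genes were also read against lists of genes of the oligodendrocyte lineage and of the nuclear pore. Of the 5796 genes nearest to any annotated OPC peak, 282 (4.87%) were nearest to a member. Of 36 genes of the lineage and of myelin, 19 had an OPC peak of any kind and 1 of them a member. This was Ugt8, whose enzyme makes the galactolipids of myelin: a RatSatRep2 peak lay -14.2 kb from its TSS (chromosome 2, 229732781 to 229732985, score 8.94, focus ratio 0.682), with the nearest iOL peak 67.4 kb away. Of 30 nuclear pore genes 15 had an OPC peak of any kind and 1 of them, Pom121, a member. Of 28 genes of heterochromatin and centromeres 0 were nearest to a member and 5 had an OPC peak. These counts are too small to set the lists apart from the share over all genes. Neither Olig2 nor Brd7, both named with Seh1 in the series title, was nearest to a member.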

How the data were processed

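Per the submitters' processing notes, Bowtie2 and HOMER were used, without versions or roles, and the builds rn6 and hg18 are named. Per the labels' protocols, chromatin was fixed with 1% formaldehyde for 10 min and quenched with 125 mM glycine. The authors deposited a peak list per Seh1 library, and an annotated table filed with the iOL sample. Per the file headers, this table came from HOMER's annotatePeaks.pl, run on rn6 with peaks named for OPC Seh1 and iOL IgG. Its 9084 intervals are all in the OPC list and 0 are in the iOL list, so it annotates the OPC peaks. The deposited score per peak and the deposited focus ratio, a fraction, were used as given. Peak thresholds, duplicate removal and the treatment of reads with several matches are unstated in the sources used here.

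Positions are 1-based. Overlaps were counted with Python 3.11.15, pandas 2.3.3 and SciPy 1.17.1, and the counting was tested on simulated intervals with planted overlaps. Copies of 7SL and 7SK were peaks of the repeat classes srpRNA and RNA, with those within 300 bp of the TSS of Rn7sl1. One shared peak in an intron is counted but not described here. Shares have exact binomial 95% intervals. Peaks of 1 library are not replicates, so no p-values were computed. Nearest genes are those of the table. Of 302 members 295 had their gene ID in RefSeq's table of assembly GRCr8, which served for host gene names only. Named peaks were the 10 with the highest score, all shared ones, the 5 nearest to a TSS, the 5 highest and 5 lowest focus ratios, those next to listed genes, groups within 50 kb, all outside RatSatRep2, and genes with 3 or more members. Members and gene lists were chosen with earlier results of these data known. Alternatives varied the member rule, overlap, score threshold, summary and distances.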

Additional observations from a re-analysis of the deposited data

Results flagged for a closer look

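Of the 9117 OPC peaks 33 have no annotation in the deposited table. All 33 lie on scaffolds, and whether any of them is in a RatSatRep2 or satellite repeat was not analysed here.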

How the results depend on the processing

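With peaks at or above a score of 8.30 only, members were 7.57% of the annotated peaks in place of 3.32%, as follows from their scores. The mean score was 9.01 and the median 8.94 (the other peaks' mean was 7.78). With neighbours counted within 500 kb, 37 members had another member nearby in place of 10. With 50 kb in place of 100 kb, 70.5% of members were far from a TSS, against 41.3% of the other peaks. Values under the other 11 alternatives moved by less than their counting interval or under 1.5 times: the share overlapping an iOL peak was 5.30 to 7.37%. Among peaks with a score of 8.30 or more that share was 7.37% for members, 4.87% for LINE peaks and 2.50% for the others outside 7SL and 7SK copies (4.18% with those copies). No paired analysis was possible because there is 1 library per stage and no result comes from a test. Depth, background in OPC and the reads shared between repeat copies are not known, so a repeat without a peak is not shown to lack Seh1. The iOL peaks have no annotation here, so those in repeats without an OPC peak could not be counted.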

Other observations

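Chromosome Y and its scaffold held 7 annotated OPC peaks, of which 4 were RatSatRep2 peaks. The scaffold's 3 lay near LOC498592, with scores of 12.8, 12.1 and 10.2, and the peak on Y itself lay near Eif2s3y, a translation factor gene, with a score of 7.02. Focus ratio and sharing with iOL also varied within the members. Among the 101 members with the lowest ratios (0.480 to 0.647) 11 were shared with iOL, against 3 of the 101 in the middle and 4 of the 100 with the highest ratios (0.731 to 0.955). This division was made after the values were seen and was not tested. Outside the members and the 7SL and 7SK copies, shared peaks also had the lower median ratio, 0.737 against 0.778 for all such peaks.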
